A study of Mus musculus with 9 samples.

Results

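The open chromatin of D2A1-d cells, a murine breast carcinoma line, was described in the 3 libraries made from cells transduced with a non-targeting control hairpin (NTC), among the 9 libraries of an ATAC-seq study of the Mediator subunit Med4. The labels give these cells as wild type and untreated, kept in culture with 10% fetal bovine serum and antibiotics. They mark the 3 NTC libraries as biological replicates and do not say whether the transduced cells were a clone or a pool. All 146734 deposited peaks were read in these 3 libraries only, by the mean of their normalised read counts. The hairpin libraries against Med4 were not compared here. With 1 group there is no contrast and no test, and error is given as the SD over the 3 NTC libraries.

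ATAC-seq uses a transposase that cuts and tags DNA where nucleosomes leave it accessible, so promoters, enhancers and insulators in use stand out as peaks of reads. Promoters of genes that most cells use lie largely in CpG islands and are open in most cell types, whereas enhancers open by lineage. Mammary epithelium holds luminal cells, which sense hormones or make milk, and contractile basal cells, and carcinoma cells can lose epithelial junctions and gain mesenchymal genes. Mediator bridges transcription factors bound at enhancers and RNA polymerase II at promoters, and Med4 belongs to its middle module.

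Promoter windows of 5 genes that the results return to are printed: the most and the second most accessible named gene starts (Aktip, Pgk1), a mesenchymal filament gene (Vim), a target of the YAP and TEAD factors (Ccn1) and an epithelial keratin gene whose start was low (Krt18). Each runs from 250 bases before to 50 bases after a start listed by RefSeq on GRCm38.p6, 5′ to 3′ on the strand of the gene. Capitals mark exact matches, on either strand, to 10 motifs: CCAAT (the CCAAT box), GGGCGG (the GC box), TATAAA (the TATA box), CCGGAAG (ETS factors), GCGCATGCG (NRF1), TGACGTCA (the cyclic AMP response element), TGANTCA (AP-1), CACGTG (the E-box), AAGATGGCG (YY1) and ACTACAATT (ZNF143). Matches may overlap, and a match is only a match of letters.
Aktip (chr8:91133978-91134277, minus strand): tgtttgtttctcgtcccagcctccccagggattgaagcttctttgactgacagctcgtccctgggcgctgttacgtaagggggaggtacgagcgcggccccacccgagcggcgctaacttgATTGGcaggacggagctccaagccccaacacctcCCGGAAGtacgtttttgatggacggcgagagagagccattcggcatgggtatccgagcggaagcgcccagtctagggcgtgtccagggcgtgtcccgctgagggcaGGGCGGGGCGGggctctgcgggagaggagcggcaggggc
Pgk1 (chrX:106186850-106187149, plus strand): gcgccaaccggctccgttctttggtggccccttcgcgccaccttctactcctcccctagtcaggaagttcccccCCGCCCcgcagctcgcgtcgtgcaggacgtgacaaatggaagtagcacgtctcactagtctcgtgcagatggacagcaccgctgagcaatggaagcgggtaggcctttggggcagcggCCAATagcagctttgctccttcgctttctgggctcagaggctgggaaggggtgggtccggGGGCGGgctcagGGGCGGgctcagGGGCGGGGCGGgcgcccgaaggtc
Vim (chr2:13574061-13574360, plus strand): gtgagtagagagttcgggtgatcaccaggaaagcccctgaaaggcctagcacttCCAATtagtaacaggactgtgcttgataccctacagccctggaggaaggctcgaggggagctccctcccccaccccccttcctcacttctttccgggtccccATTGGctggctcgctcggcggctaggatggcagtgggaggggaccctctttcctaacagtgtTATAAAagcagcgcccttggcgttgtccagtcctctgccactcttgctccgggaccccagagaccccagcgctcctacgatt
Ccn1 (chr3:145649936-145650235, minus strand): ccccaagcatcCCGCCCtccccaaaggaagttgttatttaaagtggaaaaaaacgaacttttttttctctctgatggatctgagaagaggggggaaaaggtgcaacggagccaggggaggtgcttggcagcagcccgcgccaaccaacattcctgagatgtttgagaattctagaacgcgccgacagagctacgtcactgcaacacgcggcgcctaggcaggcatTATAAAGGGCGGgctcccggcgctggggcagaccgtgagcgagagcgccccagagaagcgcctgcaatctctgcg
Krt18 (chr15:102027966-102028265, plus strand): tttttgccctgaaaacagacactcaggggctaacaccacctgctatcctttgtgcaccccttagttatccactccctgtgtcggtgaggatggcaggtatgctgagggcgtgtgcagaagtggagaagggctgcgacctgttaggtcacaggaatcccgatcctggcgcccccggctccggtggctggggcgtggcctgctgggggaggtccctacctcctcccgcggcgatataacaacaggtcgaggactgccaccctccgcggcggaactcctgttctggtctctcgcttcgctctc
The Aktip window held 2 GC boxes, 1 CCAAT box and 1 ETS match, and the Pgk1 window held 5 GC boxes and 1 CCAAT box. In the Vim window there were 2 CCAAT boxes and 1 TATA box, and in the Ccn1 window 2 GC boxes and 1 TATA box. None of the 10 motifs was matched in the Krt18 window, although its GC content, 61.3%, lay between those of Ccn1 (57%) and Aktip (65%).

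The 3 libraries held 96.1, 75.5 and 94.8 M reads in peaks, with a median of 229, 179 and 225 reads per peak in replicates 1, 2 and 3. Pearson's correlation of log2 values over peaks was 0.9901 to 0.9915 for the 3 pairs of libraries; it is across peaks, which are not independent replicates. Between 409 and 605 peaks differed by more than 2-fold in a pair. Values set in threes below are normalised read counts in NTC replicates 1, 2 and 3. Every peak has an end minus start of 501, so values of different genes refer to the same width.

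Most of the signal lay in few peaks. The median peak had a mean value of 184, and the middle of the distribution ran from 87.6 (percentile 25) to 566 (percentile 75). Percentile 99 was 4017, or 21.9 times the median. The highest 1% of peaks, 1467 regions, held 9.61% ± 0.11 (SD, n = 3) of the signal, and the highest 10% held 49.0% ± 0.27. The lower 50% of peaks held 8.86%. Replicate spread narrowed with height: the median coefficient of variation fell from 17.6% in the lowest decile of peaks to 2.65% in the highest. The value expected from read counting alone was 14.1% and 1.98%. These are expected values and not medians of a spread taken over 3 libraries, so they are not like for like.

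A gene-start peak was defined as one whose centre lay within 1 kb of a listed start of a protein-coding gene or, for the genes with no listed start, within 1 kb of either gene end. All other peaks were taken as distal. Gene-start peaks were 14735, 10.0% of all, and held 23.3% ± 0.27 (SD, n = 3) of the signal. Their median was 949, 929 and 964, against 162, 162 and 161 for the 131999 distal peaks. The ratio of the medians was 5.87 (5.85, 5.73 and 5.98, SD 0.126), so in each library gene starts were more open than distal peaks by a similar factor. Of gene-start peaks 31.3% were in the highest decile of all peaks (the top 10%), against 7.63% of distal peaks. The distribution of both classes is wide, and their ranges overlap almost entirely.

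**Figure D1:**
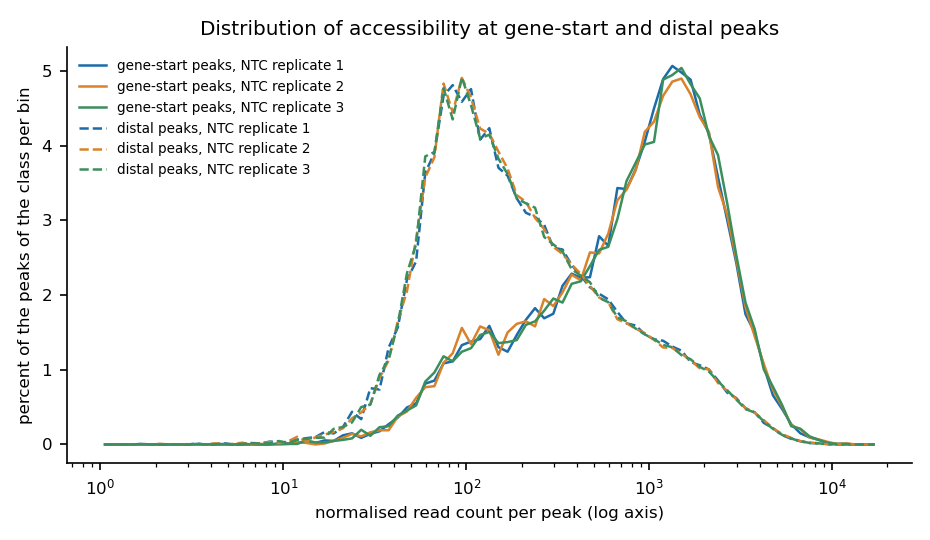
Share of peaks per bin of normalised read count (log axis), for gene-start peaks (solid lines) and distal peaks (dashed lines) in each of the 3 NTC libraries, each class scaled to its own number of peaks. The distal peaks have a median of 162 and the gene-start peaks one of 948, and the 3 libraries lie on one another within each class.

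Accessibility fell with distance from the start. Peaks centred within 0.2 kb of a start had a median of 1284, those out to 1 kb 450, those out to 2.5 kb 288 and those out to 10 kb 184. Beyond 100 kb the median was 130, and 10.5% of these 25628 remote peaks still had a value of at least 1000. Along the direction of transcription, 63.4% of the 11463 peaks at listed starts were centred between 300 bases before and 100 bases after the start, with a median of 1347 against 488 for the others. Distal peaks inside genes (median 161) and between genes (median 162) had the same level within 1 read.

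The highest gene-start peak belonged to Aktip, an adaptor of vesicle transport, at chr8:91133980-91134481, with 11450, 12072 and 11677. Pgk1, a glycolytic enzyme gene, followed at chrX:106186727-106187228 with 10482, 11434 and 10768. These are the GC-rich windows printed above, and in every library Aktip was above Pgk1 and Pgk1 above all other starts. Next came Rfx1, a transcription factor of X-box promoters, with 9999, 10301 and 9903, and Sp1, the factor that binds GC boxes, with 9706, 9633 and 9814. Others of the 15 highest were Sap130 (a subunit of the Sin3 corepressor), Nutf2 (a carrier of nuclear import), Mtmr4, Gatad2a (a subunit of the NuRD complex), Pxmp4, G3bp1 (a stress granule protein), Rab40c, Asf1b (a histone chaperone), Myh9 (the heavy chain of a non-muscle myosin) and Mt1 (a metallothionein). The means of these ran from 8794 at Sap130 to 7910 at Mt1. These 15 starts include regulators of transcription and chromatin, a glycolytic enzyme and a motor protein. The coefficient of variation was 0.747% to 4.76% over the 15. Sap130 and Mtmr4 have no listed start in the table and were read at a gene end. Of the 2651 peaks on X, 0.0377% were in the highest 1% of all peaks, the Pgk1 start among them. Why the Pgk1 start stood so far above the rest of its chromosome was not tested.

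The 15 highest distal peaks had means from 8407 to 15680 and lay from 2021 to 276615 bases from the nearest gene start. The highest peak of all, gene-start peaks included, was distal: chr8:95012390-95012891, inside Adgrg1, an adhesion receptor gene, had 15185, 16329 and 15527. The nearest listed start, 5052 bases away, is that of Adgrg3. Some of the next highest lay between genes, such as the peak nearest Def8 with 11851, 11967 and 11784, the one nearest Dtwd1 at 151317 bases with 11086, 11528 and 11336, and the one nearest Cd93 with 10498, 11089 and 10790. Other peaks lay inside genes, such as the peak in Prkci, an atypical protein kinase C gene, with 9390, 9458 and 9331. Inside Runx2, a RUNX transcription factor gene, the peak at chr17:44500301-44500802 had 9238, 9439 and 9099, whereas the start of Runx2 had 950, 885 and 921. The others of the 15 were nearest to Cacna1a, Arid5a, Actr10 (inside Frmd6), Lrrc73 (inside Tjap1), Vasn, Pecr, Gdnf, Rai14 and Socs1. The nearest gene is a convention and not a target.

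At the other end, the lowest gene-start peak was that of Zxdb, an X-linked zinc finger gene, with 1.61, 2.05 and 4.09. The olfactory receptor gene Olfr726 had 4.84, 6.16 and 12.3. Tmem200a, Morc1 (a gene of the male germ line), Pwwp3b, Brinp3, Olfr654, Prickle3, Prl (the hormone prolactin) and Arhgap32 followed, up to a mean of 16.6. Their coefficients of variation were 14.2% to 51.1%, and their order is not resolved at a few reads per library. The 10 lowest distal peaks had means of 0.27 to 4.82 and were nearest to Amot, Crim1, Mageb2, Pla2g4a, Diaph2, Mtap, Grik2, Robo2, Mef2c and Hace1. The peak nearest Amot had no reads in replicates 1 and 2 and a value of 0.82 in replicate 3. Only 117 of all peaks had a mean under 10.

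Of 21887 protein-coding genes, 12122 (55.4%) had a gene-start peak, and the median of their highest such peak was 1286. The peaks are those deposited for all 9 libraries of the series. Shares of genes with such a peak, here and below, therefore count listed peaks. A listed peak need not be open in the NTC libraries, such as that of Zxdb with a mean of 2.59. Families that most cells do not use and families that all cells use stood far apart. Of 1110 olfactory receptor genes, which serve smell, 37 (3.33%) had a gene-start peak, with a median of 114. The highest was Olfr101 with a mean of 3591 and the lowest Olfr726 with 7.76. Vomeronasal receptor genes had such a peak in 10 of 231 (Vmn1r, highest Vmn1r59 with 612, lowest Vmn1r14 with 31.2) and 4 of 124 (Vmn2r, highest Vmn2r111 with 98.3, lowest Vmn2r93 with 23.7). The trace amine receptor genes had one in 0 of 15. Beta-defensin genes had one in 4 of 42, from Defb20 with 106 to Defb14 with 452. Keratin-associated protein genes had one in 7 of 56, from Krtap4-8 with 59.7 to Krtap2-4 with 2919.

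In contrast, 78 of 84 genes for cytosolic ribosomal proteins had a gene-start peak, with a median of 1555, from Rps23 with 268 to Rps21 with 6031. Proteasome genes had one in 44 of 49, with a median of 1259, from Psmd9 with 383 to Psmb3 with 3749. Genes for subunits of respiratory complex I had one in 46 of 49, with a median of 1288, up to 4640 at Ndufs8. In these families 6, 5 and 3 members had no gene-start peak, and 2, 3 and 3 had no peak in the gene or within 5 kb of it. A gene with no listed peak is not shown to be closed.

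Starts were not known for every list gene. The gene table gives no strand, so where no start is listed a peak at either end was taken, which can be the 3′ end of the gene. Over the lists described below, 69 of 241 genes with a gene-start peak were read in this way, among them Batf2, Blk, Ccn2, Ccna2, Cd14, Cd28, Cd4, Cdh5, Col14a1, Csf1r, Csn3, Fabp4, Fgfr1, Fn1, Gata4, Hoxa4, Hoxc5, Itga6, Krt15, Lama3, Mfap5, Myc, Myod1, Ovol1, Pax4, Piwil2, Pkp1, Snai2, Snap25, Sox10, Sox9, Spi1, Tagln, Tbx3, Thy1, Vwf, Ywhaz and Zeb1. Their values are those of a gene end.

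The mesenchymal list had the highest median of the lineage lists: 21 of its 29 genes had a gene-start peak, against 55.4% of all genes, with a median of 1398, at percentile 54.5 of all genes with one. With a gene start defined at 0.5 kb its percentile was 53.1, below the 54.8 of the hormone-sensing luminal list. Vim, the intermediate filament of mesenchymal cells, had 3900, 4336 and 4228 at chr2:13573427-13573928, centred 634 bases before the listed start. This peak lies before the printed Vim window and does not overlap it, so the printed letters are not under the value. Snai1, a repressor of E-cadherin, had 3433, 3325 and 3490, and S100a4, a calcium-binding protein of motile cells, had 3025, 3153 and 2981. The related repressor Snai2 had 2717, 2677 and 2818. The means of Fn1 (fibronectin), Cd44 and Twist1 were 2460, 2005 and 1883. In all 3 libraries each of these 7 starts was above the median of genes with a gene-start peak. The 2 genes of the ZEB repressors were lower, Zeb2 with a mean of 879 and Zeb1 with 186.

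The mesenchymal list was not open throughout. Its 3 lowest values were Zeb1 with 174, 179 and 205, Thy1 with 93.6, 92.4 and 117, and Prrx1 with 16.1, 20.5 and 22.9. Those of Zeb1 and Thy1, which have no listed start, are gene-end values, at the upper-coordinate end in Thy1. No gene-start peak was listed for Cdh2 (N-cadherin), Twist2, Foxc2, Col1a2, Col3a1, Fbn1, Fap and Mmp2. Distal peaks lay inside some of these genes: the highest inside Zeb1 had a mean of 4248 ± 126 (SD, n = 3), the highest inside Twist2 4816 ± 100.5 and the highest inside Fbn1 3101 ± 88.3. A high distal peak therefore occurred in genes with a low gene-end value or with no gene-start peak listed.

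Of 36 genes of epithelial junctions and identity, 15 had a gene-start peak, where 55.4% of all genes had one. Their median was 556, at percentile 21. This depends on the distance: 25 of the 36 had a peak within 2.5 kb, where 63.5% of all genes did, and the percentile was 30.8 at that distance and 46.8 for peaks summed over the gene and 5 kb around it. The highest was Elf3, an epithelial ETS factor, with 2383, 2400 and 2392, followed by Grhl1, a grainyhead factor, with 1785, 1794 and 1784. The desmosomal gene Jup had 1082, 1083 and 1104. The 3 lowest were Ovol1 with a mean of 104, Pkp1 with 103 and Cldn1 with 66.6. Krt18, whose window is printed above, had 170, 162 and 160 at chr15:102027930-102028431.

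No gene-start peak was listed for the cadherin and adhesion genes Cdh1, Epcam, Dsg2, Dsc2 and Dsp, the keratin genes Krt7, Krt8 and Krt19, or the tight junction genes Cldn3, Cldn4, Cldn7, Ocln, Tjp3, Marveld2 and Marveld3. The same held for Crb3, the splicing regulator Esrp1, the transcription factors Grhl2 and Ovol2, and Rab25 and Prss8. For some of these a peak lay just beyond 1 kb: one with a mean of 929 was centred 1116 bases from Krt8 and one with 3025 was 1304 bases from Tjp3. The peaks inside Cdh1, the E-cadherin gene, reached 2909 ± 14.2 (SD, n = 3), those inside Grhl2 2421 ± 83.0 and those inside Dsc2 2532 ± 64.6, so chromatin within some of these genes was open.

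Among hormone-sensing luminal genes, 5 of 12 had a gene-start peak, against 55.4% of all genes. Tbx3, a T-box factor, had 4307, 4296 and 4367, and Xbp1, a factor of the secretory pathway, had 2211, 2670 and 2377. Areg (amphiregulin) had a mean of 789, and the lineage factors Foxa1 and Gata3 had 538 and 514. No gene-start peak was listed for the hormone receptor genes Esr1, Pgr and Prlr, nor for Cited1, Spdef, Wnt4 and Tnfsf11. Peaks inside Wnt4 reached 3384 and those inside Esr1 1583, while Gata3 had 2382 at 1088 bases from its start.

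Of 12 genes of luminal progenitors and milk production, 3 had a gene-start peak, against 55.4% of all genes. They were Cd14 with 1547, 1452 and 1541, Elf5 with 173, 137 and 158, and Csn3, a casein gene, with 138, 93.4 and 115. Kit, Aldh1a3, Ehf, Csn1s1, Csn2, Wap, Lalba, Ltf and Wfdc18 had none listed.

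Basal genes had a gene-start peak in 9 of 18, against 55.4% of all genes, with a median of 132, at percentile 7.71. This depends on the distance: 14 of the 18 had a peak within 2.5 kb, where 63.5% of all genes did. The percentile was 22.0 at that distance and 45.7 for peaks summed over the gene and 5 kb around it. Procr, a surface receptor of basal stem cells, had 2062, 1996 and 2124, Mylk, a kinase of contraction, had 1842, 1760 and 1819, and Itga6 had 870, 755 and 853. The 3 lowest were Lama3 with a mean of 51.2, Krt15 with 50.7 and Myl9 with 44.1. Acta2 and Tagln, genes of contractile filaments, had means of 132 and 88.1. Krt5, Krt14, Krt17, Trp63, Myh11, Cnn1, Oxtr, Cdh3 and Itgb4 had none listed, although the highest peak inside Cdh3 had a mean of 7216 ± 190 (SD, n = 3) and the highest inside Trp63 1575 ± 69.9. Over the luminal and basal lists together, 17 of 42 genes (40.5%) had a gene-start peak, against 55.4% of all genes. Of these 17 genes, 5 (Cd14, Mylk, Procr, Tbx3, Xbp1) were above the median of all genes with one.

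**Figure D2:**
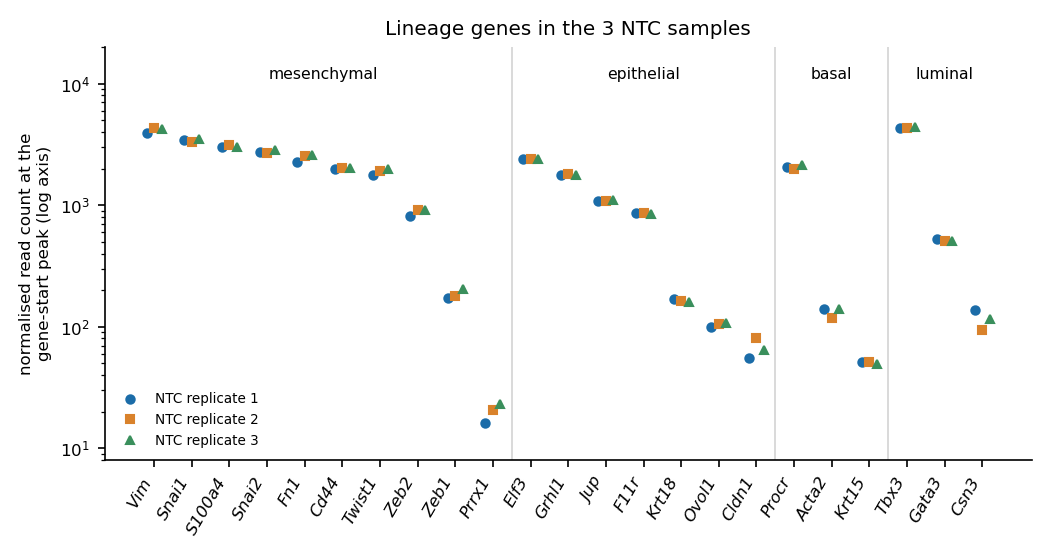
Normalised read count (log axis) at the highest gene-start peak of 23 mesenchymal, epithelial, basal and luminal genes, with 1 point per NTC library. Mesenchymal starts run from Vim (mean 4155) to Prrx1 (mean 19.9), and the epithelial ones from Elf3 (2392) to Cldn1 (66.6), with the 3 libraries close together at each gene.

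Markers of 13 other lineages were read as a check of the cell line. Of their 168 genes, 43 (25.6%) had a gene-start peak, against 55.4% of all genes. The median was 280, and 3 were above the median of all genes with one: Cd68, Lipe and Sox2. As in the lists above, chromatin inside some of these genes was open. The highest distal peak inside had a mean of 5876 in Ebf1 and 4150 in Mbp, but 43.3 in Ckm. For peaks summed over the gene and 5 kb around it, the 13 lists ran from percentile 11.8 (hepatocyte) to 47.9 (fibroblast), beside 46.8 for the epithelial list. In bulk chromatin, a start open in few cells and one weakly open in all cells cannot be told apart.

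In the fibroblast list 3 of 12 had one (Fbln1 602, Mfap5 124, Col14a1 45.5), and Pdgfra, Dpt, Lum, Dcn, Pi16, Col15a1, Clec3b, Ebf2 and Tcf21 had none. Endothelial genes had one in 4 of 17 (Cdh5 239, Vwf 129, Egfl7 126, Flt1 114), with none at Pecam1, Kdr, Tek, Tie1, Erg, Sox17, Sox18, Emcn, Cldn5, Esam, Robo4, Mmrn2 and Plvap. The pericyte list had one in 1 of 8 (Mcam 308), with none at Rgs5, Cspg4, Kcnj8, Abcc9, Notch3, Higd1b and Des. These 8 values were in the lowest 25% of genes with a gene-start peak, and those of Cdh5, Col14a1, Mfap5 and Vwf are gene-end values, at the upper-coordinate end in Cdh5 and Col14a1.

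Leukocyte genes had a gene-start peak in 5 of 17. Cd68, a lysosomal protein, had 1594, 1484 and 1531, Spi1, the myeloid factor PU.1, had 887, 987 and 958, and Csf1r, S100a8 and Lyz2 had means of 607, 551 and 280. Ptprc, the pan-leukocyte phosphatase CD45, had none, and neither did Cd53, Laptm5, Coro1a, Adgre1, Itgam, Cx3cr1, Fcgr1, Mpeg1, Cebpe, Csf3r and S100a9. T and NK cell genes had one in 3 of 15 (Cd4 482, Cd28 379, Tcf7 192; the Cd4 peak lies at the lower-coordinate end of the gene and is shared with Gpr162), with none, for example, at Cd3d, Cd3e, Cd3g, Cd2, Cd8a, Cd8b1, Lck, Zap70, Bcl11b, Ncr1 and Klrb1c. B cell genes had one in 4 of 10 (among them Blk 815, Pou2af1 90.2 and Cr2 30.3), with none at Cd79a, Cd79b, Ms4a1, Pax5, Ebf1 and Fcrla. Erythroid genes had one in 2 of 9 (among them Epor 312), with none at Gata1, Klf1, Alas2, Tal1, Ermap, Slc4a1 and Rhag.

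Adipocyte genes had one in 5 of 11. Lipe, the hormone-sensitive lipase, had 1384, 1423 and 1467, Pparg, the adipocyte nuclear receptor, had 1218, 1163 and 1109, and Cebpa, Fabp4 and Cidec had means of 307, 169 and 123; Adipoq, Plin1, Lep, Adig, Retn and Ucp1 had none. Of neural genes 6 of 21 had one. Sox2 had 1975, 2017 and 2057, above the other neural starts by far: Tubb3 and Map2 had means of 497 and 351, and Sox10, Snap25 and Syn1 had 81.5, 78.6 and 24.7. Neurod1, Neurog1, Neurog2, Sox1, Pax6, Olig1, Olig2, Rbfox3, Syp, Gfap, Mbp, Stmn2, Nefl and Dcx were among those with none.

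Muscle genes had one in 3 of 14 (Gata4 310, Ryr1 197, Myod1 144), with none at Myog, Myf5, Myf6, Pax7, Ckm, Acta1, Actc1, Tnnt2, Nkx2-5, Myh6 and Myh7. Hepatocyte genes had one in 3 of 12 (among them Foxa3 1228 and Apob 209), and the Foxa3 peak is shared with Sympk. Alb, Apoa1, Ttr, Hnf4a, Foxa2, Cyp7a1, Fga, Fgb and Ahsg had none. Pluripotency genes had one in 3 of 12 (Klf4 749, Esrrb 175, Pou5f1 125), with none at Nanog, Zfp42, Dppa3, Dppa5a, Tfcp2l1, Sall4, Lin28a, Tdgf1 and Fgf4. Germ cell genes had one in 1 of 10, Piwil2 with 44.5, with none at Ddx4, Dazl, Mael, Sycp1, Sycp3, Tex101, Stra8, Tdrd1 and Rec8.

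The AP-1 family, dimeric factors that act at enhancers, had a gene-start peak in 9 of 11 genes, against 55.4% of all genes. Their median was 1551. Fosl2 had 4240, 4516 and 4513, Jun had 3753, 4110 and 3948, and Junb had 2884, 3083 and 3061. The lowest were Batf3 with a mean of 788, Fosb with 746 and Batf2 with 74.5. Jund and Batf had none listed within 1 kb, but a peak inside Jund with 2878, 3107 and 3340 was centred 1196 bases from its start. Among peaks within 1 kb of a start, Fosl2, Jun and Junb led the family. The Jund peak beyond that distance, with a mean of 3109, was at a level similar to that of Junb. Batf2, read at a gene end, was far below the rest.

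All 14 genes of the YAP and TEAD pathway, which senses cell contacts and tension, had a gene-start peak, against 55.4% of all genes. Their median was 1078, at percentile 41.4 and below the 1286 of all genes with one. The percentile was 55.5 for summed gene-start peaks and 81.1 for peaks summed over the gene and 5 kb around it. Wwtr1, the coactivator TAZ, had 3933, 4036 and 4123. The target gene Ccn1 had 3968, 3772 and 3849 at chr3:145649732-145650233, a peak that covers nearly all of the window printed above, and the target Ankrd1 had 3662, 3883 and 3804. The lowest were Lats1, a kinase that restrains YAP, with a mean of 717, Tead2 with 497, and Ccn2 with 123, 118 and 130. Ccn1 and Ccn2, related targets of the pathway, thus lay near opposite ends of this list, the Ccn2 value being that of a gene end.

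Each of the 4 RUNX genes had a gene-start peak, where 55.4% of all genes had one. Cbfb, the common subunit, had a mean of 3872, Runx1 had 2141, Runx2 had 919 and Runx3 had 643. Distal peaks inside Runx1 numbered 28 and reached 4786, and those inside Runx2 numbered 44 and reached 9259. GATA genes had a gene-start peak in 3 of 6 (Gata2 1224, Gata3 514, Gata4 310), with none at Gata1, Gata5 and Gata6. This was 50% of the GATA genes, close to the 55.4% of all genes. SOX genes had one in 8 of 19, or 42.1% against 55.4% of all genes. The highest were Sox12 with 3615, Sox2 with 2016 and Sox9 with 1778. The lowest were Sox13 with 208, Sox15 with 87.0 and Sox10 with 81.5. The Sox10 value is that of a peak at the lower-coordinate end of the gene, with no listed start. Sox1, Sox3, Sox5, Sox6, Sox7, Sox11, Sox14, Sox17, Sox18, Sox21 and Sox30 had none, though 63 distal peaks lay inside Sox5. PAX genes had one in 3 of 9, against 55.4% of all genes (Pax9 1573, Pax2 156, Pax4 81.6). None was listed at Pax1, Pax3, Pax5, Pax6, Pax7 and Pax8.

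Of the 4 Hox clusters, which record position along the body, cluster A stood apart in its number of gene-start peaks. In cluster A, 8 of 11 genes (72.7%) had a gene-start peak, where 55.4% of all genes had one. Among them, Hoxa5 had 1831, 1859 and 1800, and Hoxa3 had 1660, 1654 and 1703. The 3 lowest were Hoxa6 with a mean of 835, Hoxa7 with 332 and Hoxa4 with 209, and Hoxa9, Hoxa11 and Hoxa13 had none. In clusters B, C and D together 1 of 28 genes had one, Hoxc5 with 65.4, 64.7 and 71.2. Those without were Hoxb1 to Hoxb9 and Hoxb13, Hoxc4, Hoxc6 and Hoxc8 to Hoxc13, and all 9 Hoxd genes.

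Genes that dividing cells use had the highest median of the 32 lists. Of 28 cell cycle and replication genes 27 had a gene-start peak, against 55.4% of all genes. Their median was 2130, at percentile 76.2, and 14 were in the highest 25% of genes. Ccna2, the cyclin of DNA replication and entry into mitosis, had 5487, 5736 and 5606. E2f1 had 3985, 4191 and 4294, and Pcna, the sliding clamp of replication, had 3840, 4000 and 4115. Even the 3 lowest, Bub1, Ccne1 and Mki67, had means of 1199, 1169 and 1090. The nearest listed peak to Rrm2 lay 24748 bases from its start.

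Of 26 oncogenes and tumour suppressors 23 had a gene-start peak, against 55.4% of all genes, with a median of 1341. The highest were Brca1, whose peak is shared with Nbr1, with 4158, 4333 and 4230, Pik3ca with 3787, 4028 and 4167, and Cdkn1b with 2142, 2129 and 2207. The lowest were Brca2 with a mean of 628, Cdkn2b with 624 and Nf1 with 518. Cdkn2a, a tumour suppressor often lost in cultured lines, had 1496, 1375 and 1516, and Myc had 2047, 2009 and 2146. Of the receptor genes, Egfr, Fgfr2 and Notch1 had no gene-start peak, while Erbb2, Met and Fgfr1 had means of 1648, 1479 and 1330.

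Every one of the 30 Mediator genes had a gene-start peak, against 55.4% of all genes, with a median of 1387. The highest were Med19, whose peak is shared with Tmx2, with 4160, 4105 and 4119, Med29 with 2805, 3024 and 2944, and Med11 with 2463, 2620 and 2639. The 3 lowest were Med25 with 726, 702 and 719, the kinase Cdk8 with 659, 714 and 718, and Med4, the gene the hairpins target, with 559, 558 and 516. Med4 was thus the lowest of the 30 in each of the 3 control libraries, at percentile 20.6 of genes with a gene-start peak. Of 20 housekeeping reference genes 19 had one, with a median of 1652. Pgk1 was the highest, followed by Gapdh and B2m with means of 3743 and 3125, and Hprt, Sdha and Ywhaz were the lowest with 758, 635 and 170. The Ywhaz value is that of a peak at the lower-coordinate end of the gene, with no listed start. The highest distal peak inside Ywhaz had a mean of 3589.

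**Figure D3:**
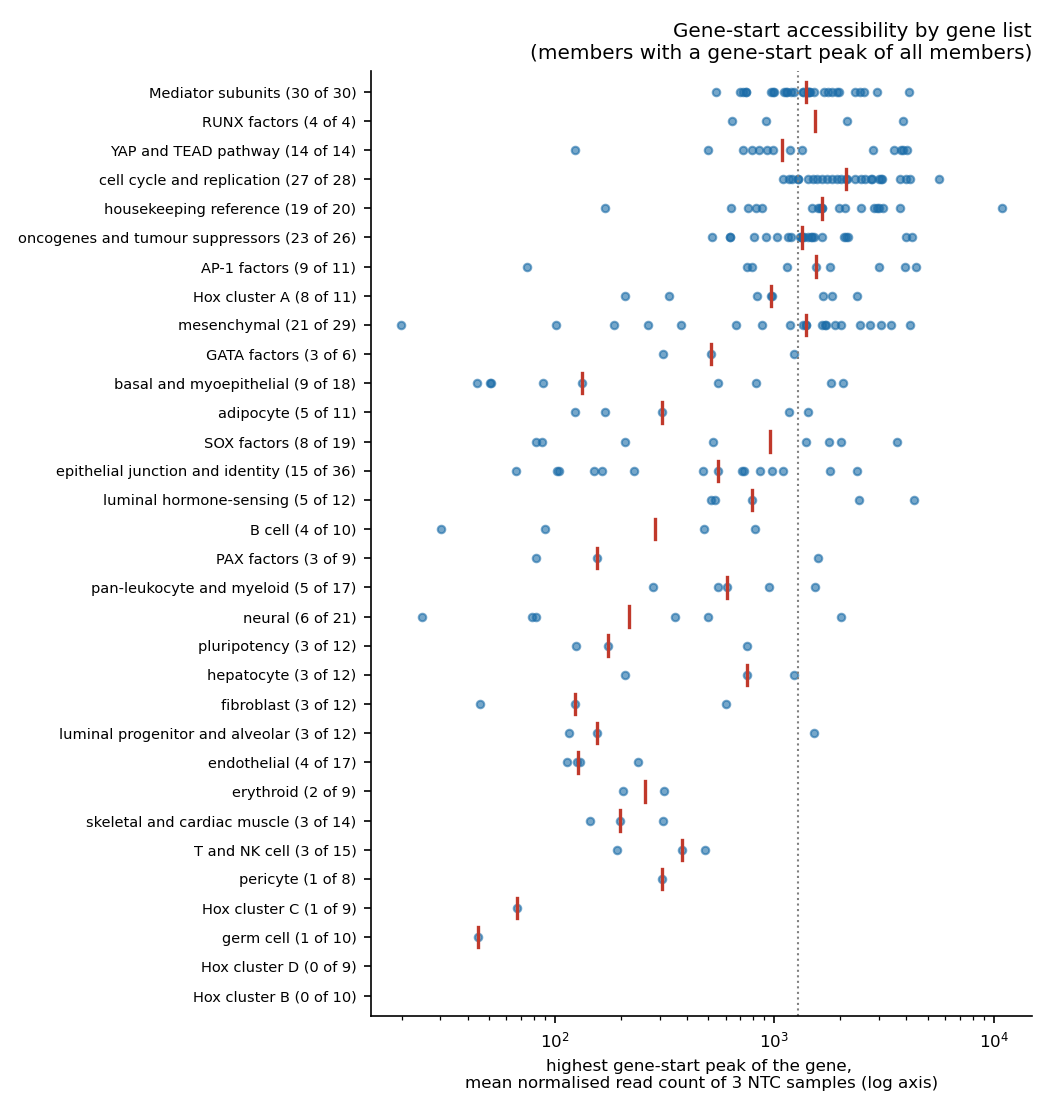
Mean normalised read count of the 3 NTC libraries (log axis) at the highest gene-start peak of each gene, by gene list, with the number of members that have such a peak. Red bars are list medians over those members and the dotted line is the median of all genes with a gene-start peak, 1286. Lists at the top, such as cell cycle genes (27 of 28), lie around or above that line, and most lists of other lineages lie to its left with few members plotted.

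Promoter windows of 17492 genes could be read. The 9611 genes with a gene-start peak had a median GC content of 61% against 49% for the 7881 without one. The CpG ratio, the number of CG pairs over that expected from the C and G content, was 0.773 against 0.238. Of windows with a CpG ratio of at least 0.6, 82.9% had a gene-start peak, against 46.6% at 0.3 to 0.6 and 17.0% under 0.3. The 1464 CpG-rich windows without a peak show that these letters do not go with a peak in every gene. The neural list is an example: its windows had a median CpG ratio of 0.790, close to the 0.803 of housekeeping genes, over 14 and 15 windows, with a gene-start peak at 6 of 21 against 19 of 20 genes.

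CCAAT boxes, which the trimeric factor NF-Y binds, followed accessibility in another way. Their share was 38.9% of windows without a gene-start peak and 36.7% in the lowest decile of genes with one, then 26.4% in the third decile, and it reached 65.6% in the highest decile, beside 39.2% of all windows. Among CpG-rich windows with a peak, the median value was 1886 for 2771 genes with a CCAAT box and 1288 for 4323 without one. The median position of the matches was 86 bases before the start. GC boxes, bound by Sp1, were matched in 24.3% of windows without a peak, 38.0% in the lowest decile and 72.0% in the highest, beside 47.0% of all windows. The GC box share had already reached 69.1% in the fifth decile, and it was 76.1% in the ninth, above the highest.

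TATA boxes ran the other way, with 20.6% of windows without a peak, 13.8% in the lowest decile and 4.37% in the highest, beside 13.1% of all windows. AP-1 motifs were matched in 12.3% of the lowest decile and 5.09% of the highest, beside 7.18% of all windows. ETS motifs were most frequent in the middle, at 25.6% of the sixth decile, beside 12.1% of all windows, and 19.8% of the highest decile. NRF1 motifs and cyclic AMP response elements were each matched in 1.56% of the highest decile, below the 2.38% and 2.33% of all windows. Over all windows with a gene-start peak the shares were 3.80% and 3.45%, and they reached 5.31% for NRF1 in the third decile and 4.68% for the cyclic AMP response element in the eighth and ninth. E-boxes (7.87% of all windows), YY1 motifs (1.98%) and ZNF143 motifs (0.555%) were matched in 8.63%, 2.60% and 1.77% of the highest decile. Both the Pgk1 and the Aktip window printed above hold a CCAAT box.

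**Figure D4:**
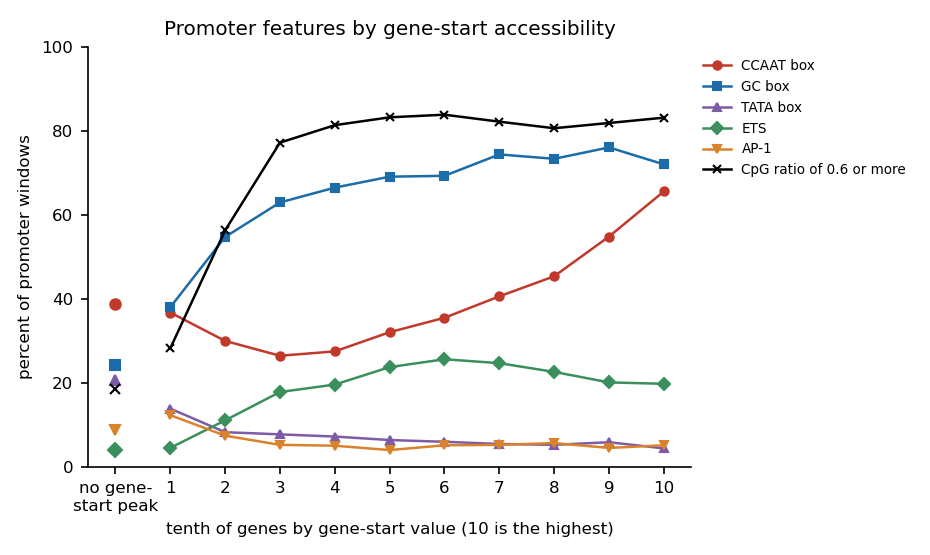
Percent of promoter windows with each motif or with a CpG ratio of at least 0.6, for genes with no gene-start peak (left) and for deciles of genes by gene-start value. The CCAAT line falls to 26.4% in the third decile and rises to 65.6% in the highest, while the TATA line falls to 4.37%.

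Distal peaks whose centres lay within 12500 bases of each other were joined into 43083 clusters. Single peaks were 18965 of these and held 8.28% of the distal signal, while the 2223 clusters with at least 10 peaks held 36.0%. The highest sum was at chr2:167727087-168073259, where 80 peaks over 346 kb summed to 99018, 99801 and 99826. It overlaps Ripor3 and Ptpn1, a phosphatase gene, and the gene start nearest to its highest peak is that of Cebpb, a C/EBP transcription factor, at 88974 bases. The second, at chr2:167511826-167713916, adjoins it and overlaps Cebpb, Snai1, Rnf114, Tmem189 and Ube2v1, with 49 peaks and a sum of 62676 ± 126 (SD, n = 3). The region around Snai1 and Cebpb thus holds the highest and the next distal cluster of these cells.

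The third, at chr6:31032937-31176802, overlaps no protein-coding gene and is nearest to Klf14, with 42 peaks and a sum of 59699 ± 292. The fourth, on chromosome 8, overlaps 17 genes, Jund, Gdf15 and Mast3 among them, with 59 peaks and a sum of 58332. The other 8 of the 12 highest overlap Irf2bp2, Plec, Itpr3, Socs3, Zmiz1, Hdac7, Epha2, and Csrp1 with Nav1, and their sums ran from 54976 to 46486. Single genes with the most peaks, counted inside the gene or nearest to its start within 100 kb, were Macrod2 with 115, Arhgap26 with 111, Nav2 with 104, Foxp1 with 98, Pde4d with 96, Dlgap2 with 95, Lpp with 93, Fndc3b with 90, Arhgap10 with 83 and Kalrn with 80, where the median gene had 4. These genes are long, and per 100 kb Fndc3b held 25.4 peaks inside it and Arhgap10 24.7, against 5.76 in Macrod2.

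By chromosome, the median of distal peaks ran from 118 on X (121, 120 and 119 in the 3 libraries) to 187 on chromosome 2 (186, 187 and 186). No peak was listed on Y. Gene-start medians ran from 673 on X to 1164 on chromosome 17. Chromosome 8 held 6.22% of all peaks but 33 of the 100 highest and 14.2% of the 1000 highest. Of the 15 genes with the highest starts, 7 lie on it, among them Aktip, Rfx1, Nutf2, Gatad2a, Asf1b and Mt1. In its window from 90 to 100 Mb the 56 gene-start peaks had a median of 2430, 2552 and 2520, the highest of 220 such windows, whose median was 934. The 710 distal peaks there had a median of 155, equal within 1 read to the median of all 266 windows, 155. Copy number and accessibility cannot be told apart in these data.

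**Figure D5:**
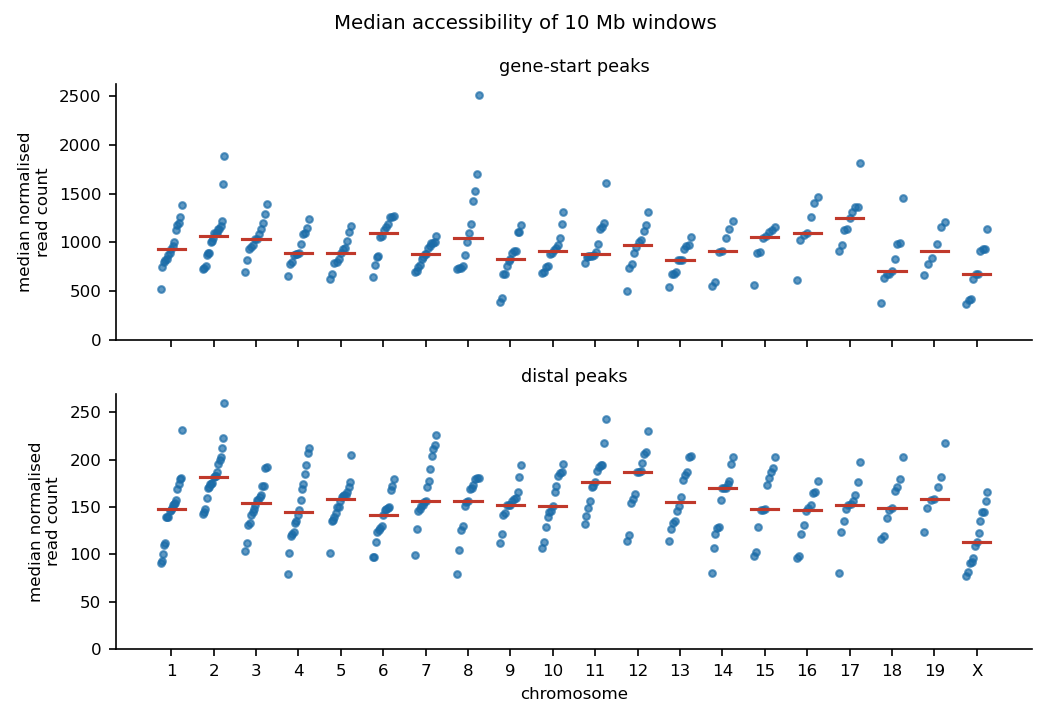
Median normalised read count of gene-start peaks (upper panel, windows with at least 20 such peaks) and distal peaks (lower panel) in windows of 10 Mb, each point a window, ordered by value within its chromosome, with a red bar at the median of the windows of that chromosome. A window of chromosome 8 stands at 2513 in the upper panel, and the windows of X lie low in the lower panel.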

How the data were processed

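ATAC-seq was carried out on 9 libraries, 3 each for NTC and the hairpins shMed4 #1 and shMed4 #4, and the 3 NTC libraries were used. The deposited values are signal per peak: read counts that the authors normalised with DESeq2, as the name of the deposited table states. Subread with its program featureCounts, MACS2, BWA and Trim Galore are listed in the submitters' processing notes with no version, as is build mm10 (GRCm38). The sources used here do not state whether peaks were found per library or on pooled reads, or whether coordinates count from 0. Nor do they give a blacklist, a filter on duplicate reads or the copy number of the line. Whole reads behind the values were worked out from the step of each column, for depth only (tolerance 0.0001 read).

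Peaks were assigned to protein-coding genes of GRCm38.p6 (RefSeq) within 1 kb of a listed start (17492 of 21887 genes have one) or, for the others, of either gene end. The listed starts leave out 1 chromosome entirely. Genes on chromosome 18 such as Apc, Cd14, Csf1r, Sap130, Smad4 and Zeb1 had none. They were read at a gene end, and their promoter windows could not be read. Each gene was read at its highest gene-start peak. Named were the 15 highest and 10 lowest gene-start and distal peaks, with 1 peak per gene and predicted names left out, the 12 highest clusters, the 10 genes with most peaks, the 3 highest and lowest members of each list, all members without a gene-start peak, Med4, and the highest and lowest member of families read by name prefix. S6 kinases (Rps6k) and Psme3ip1 were left out of the ribosomal and proteasome families. Further list members and the highest distal peak inside a gene were named after their values were seen. A few genes that this rule names are not reported here. Members and lists were chosen with earlier results of these data known. No test was made, since there is 1 group. Python 3.11.15 with pandas 2.3.3, numpy 2.4.6 and matplotlib 3.10.9 was used, after the assignment steps had been tested on simulated data. Alternatives left out each library, changed the distance to a start, the joining distance and the low-value minimum, scaled libraries to equal totals, or summed peaks per gene.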

Additional observations from a re-analysis of the deposited data

How the results depend on the processing

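Leaving out 1 NTC library at a time kept the share of signal in gene-start peaks at 23.1% to 23.3% and the ratio of gene-start to distal medians at 5.80 to 5.91. The median coefficient of variation, 7.23% over 3 libraries, was 5.52% to 5.90% over 2. Equal library totals, a minimum mean of 10 and autosomes only left the share of signal, the ratio and the share of the highest 1% of peaks within 1 SD of the libraries. With a gene start defined at 0.5 kb and 2.5 kb, the share of signal was 20.3% and 28.6% and the ratio 7.24 and 4.15. With listed starts only, an alternative chosen after seeing the data, they were 20.05% and 6.48, and the highest 1% of peaks held 9.73% of the signal.

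Of the lists with a median percentile, 7 lay above 50, and 7 to 10 did so under the alternatives. Leaving out a library moved no list by more than 1.52 points, while the distance of 0.5 kb moved the hormone-sensing list by 25.3 points, 2.5 kb the GATA list by 30.5, and summing all peaks over the gene and 5 kb around it the fibroblast list by 40.7. Of the 12 highest clusters, 11 or 12 were shared without 1 library, 3 when peaks were joined within 5 kb and 4 within 25 kb. The ratio of the distal medians of chromosomes 2 and X, 1.58, was 1.55 to 1.57 without 1 library and 1.55 for distal peaks at least 10 kb from any gene. The causes of these shifts, that of the coefficient of variation included, were not tested. The CCAAT share of the highest decile was 65.0% with 1 gene per peak. No paired analysis was possible because there is 1 group and no test. Depth limits the peaks under 10 reads, whose order is not resolved.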
